A study of Sus scrofa with 5 samples.

Results

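Genes of apoptosis and follicular atresia were followed in ovarian follicles of Indian Ghoongroo pigs, an Indian breed of the domestic pig. The set was a list of 37 gene symbols covering death receptors and their adaptors, caspases, the BCL2 family, inhibitors of cell death, and stress and FOXO factors. Of these, 34 had a row of that symbol among the 30822 genes of the deposited tables, and 32 reached an FPKM (fragments scaled by gene length and by library total) of 1 or more in at least 2 libraries and were tested. BIK, BCL2L2 and BIRC2 had no row of that symbol, and FASLG and PMAIP1 stayed under the filter. There were 3 libraries of large follicles, set against 2 libraries of small follicles, all from females and labelled as biological replicates. RNA was taken from follicles as a whole, so granulosa, theca, vessel and blood cells were measured together. The labels used here give no follicle diameter, animal age, pooling or number of animals, so a p-value speaks of the spread among these 5 libraries, which may be technical. In such bulk samples, fewer cells of a type and less RNA per cell cannot be told apart.

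Apoptosis is started along a pair of routes that meet at the caspases, the proteases that dismantle the cell. In the receptor route, ligands such as FASLG and TNFSF10 bind death receptors, and adaptors such as FADD recruit the initiator CASP8. In the mitochondrial route, BH3-only proteins tip the balance between pro-survival BCL2 proteins and the effectors BAX and BAK1, cytochrome c leaves the mitochondrion, and APAF1 and CASP9 form the apoptosome. Most ovarian follicles are lost by atresia, in which granulosa cell apoptosis is a central event, and gonadotropins and growth factors keep the selected follicles alive.

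Library totals recovered from the FPKM steps lay between 9991708 and 11507527 fragments in the large follicle libraries, against 9523739 and 10038500 in those of small follicles. All 8 granulosa and all 6 theca markers listed passed the filter, as did 5 of 6 oocyte markers, among them GDF9 and BMP15, with DAZL at most 0.0490 FPKM in any library. Summed granulosa markers, mostly INHA, overlapped, at 5209 to 13304 FPKM in large follicles, against 3828 and 5321 FPKM in small ones. INHA and CYP19A3 were higher in all large libraries, FSHR, FOXL2, AMH, INHBB and HSD17B1 were lower in all, and NR5A2 overlapped. Summed theca markers stood at 1807 to 3878 FPKM in large follicles, against 703 to 1059 FPKM in small ones. CYP17A1 and INSL3 made up most of that sum, INSL3, LHCGR and PTCH1 overlapped between the sizes, and GLI1 was lower in all large libraries. Summed myeloid markers stood at 227 to 332 FPKM in large follicles, against 115 to 132 FPKM in small ones. CD68, CSF1R and CD163 overlapped between the sizes, and the other myeloid markers were higher in all large libraries. Summed erythroid markers, mostly HBB, stood at 1003 to 1675 FPKM in large follicles, against 233 and 701 FPKM in small ones. HBB, AHSP and ALAS2 were higher in all large libraries, and SLC4A1 stayed under the filter. Summed proliferation markers stood at 50.5 to 70.1 FPKM in large follicles, against 79.9 to 135 FPKM in small ones. CCNB1 and CDK1 overlapped between the sizes, and MKI67, TOP2A, PCNA and MCM2 were lower in all large libraries.

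No apoptosis gene passed the test between large and small follicles. By limma on log2(FPKM + 1), 0 of the 32 tested genes were called at a Benjamini-Hochberg adjusted p under 0.05, where 0.978% of all 13087 genes tested were called. At an unadjusted p under 0.05 the count was also 0 of 32, where 10.4% of all genes tested passed. Limma voom on the recovered fragments, scaled by trimmed means of log ratios, likewise called 0 of 32, with 0 at an unadjusted p under 0.05. The values of large and small follicles did not overlap for 2 of the 32 genes, CASP2 and BAD, where 26.1% of all genes tested did not overlap. The median log2 fold change (large minus small) was -0.02 over the 32 genes and -0.08 over all genes tested, with 15 genes above 0 and 17 below. Without small follicle replicate 1 that median of the 32 genes was -0.31, beside -0.26 over all genes.

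The precision of the design set how much a missing call says. The 95% intervals of all 32 differences included 0. For 24 of the 32 genes the interval lay between -1 and 1, where 63.4% of all genes tested had such an interval. A change of 1 log2 unit on the log2(FPKM + 1) scale was outside the interval of these genes. For the other 8 genes the interval reached beyond. A gene with an FPKM near 1 changes less on this scale than on the scale of FPKM itself.

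**Figure D1:**
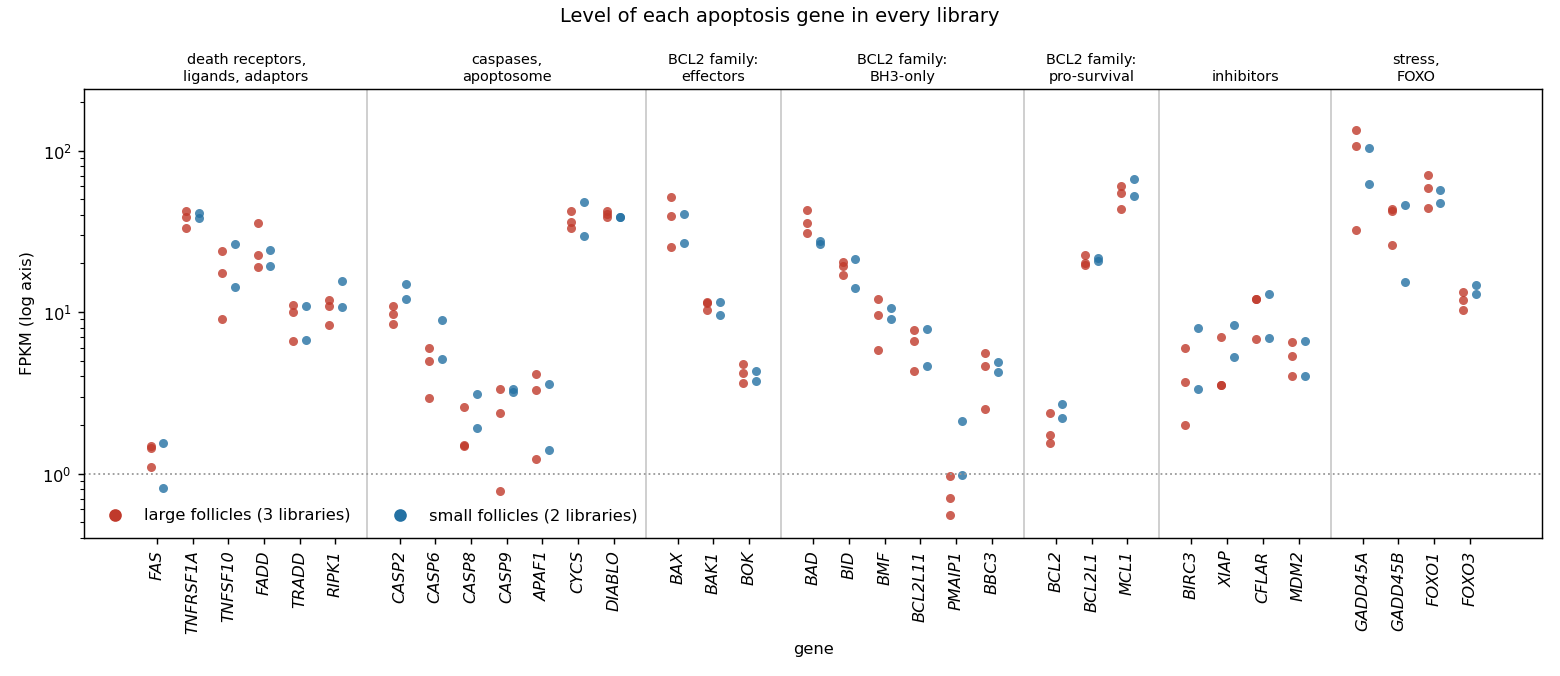
Level of 33 apoptosis genes in each library, in FPKM on a log axis, grouped by role; each point is 1 library, large follicles at left and small follicles at right of each gene, and the dotted line marks 1 FPKM. The points of both follicle sizes intermingle for nearly every gene, with CASP2 and BAD the tested genes whose groups stand apart; FASLG, at 0 in every library, is not drawn.

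**Figure D2:**
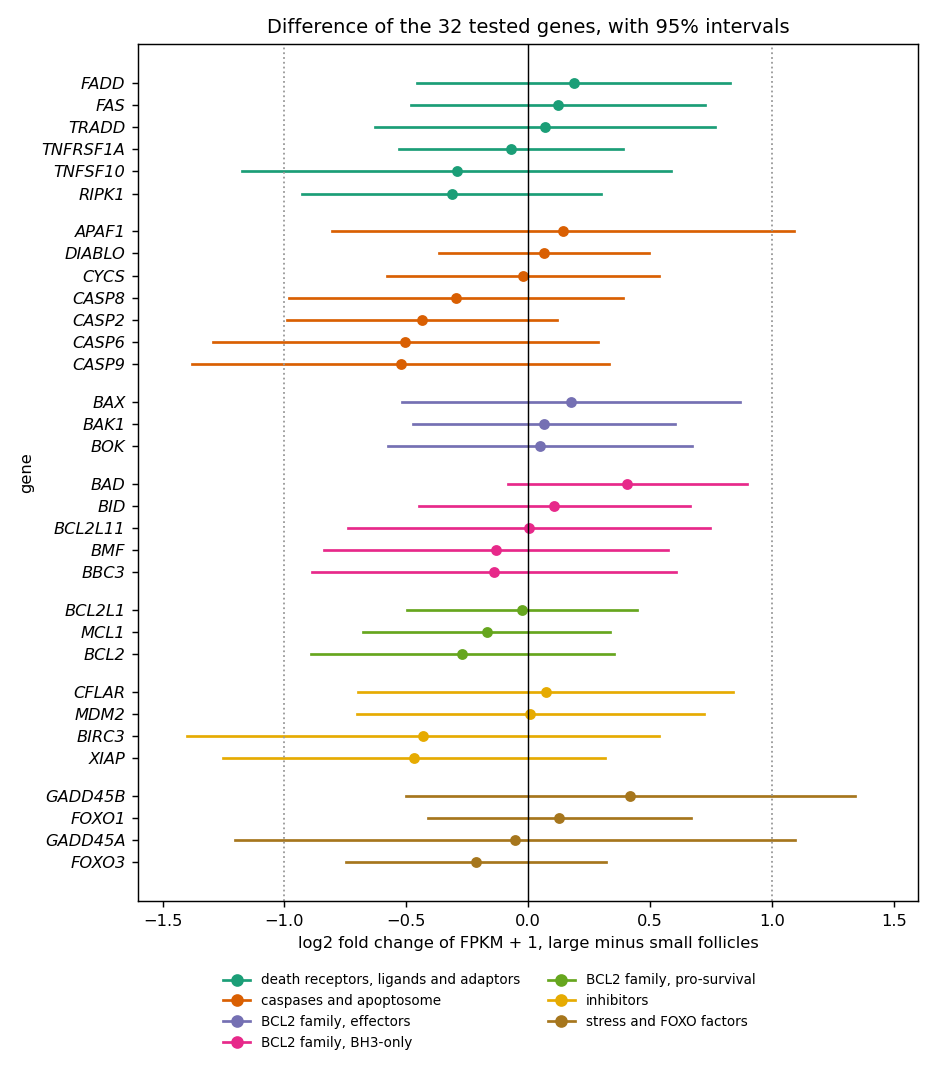
Log2 fold change of FPKM + 1, large minus small follicles, for the 32 tested genes (points) with 95% intervals from limma (lines), coloured by role; dotted lines mark -1 and 1. All 32 intervals cross 0, and those of 24 genes stay inside the dotted lines.

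Among death receptors and ligands, the receptor for tumor necrosis factor was abundant, FAS was scarce and its ligand was not seen. FAS (gene 396826, Sscrofa11.1 chromosome 14, 100927305 to 100954781), the receptor for Fas ligand, had 1.44, 1.11 and 1.48 FPKM in large follicles, against 0.812 and 1.54 FPKM in small follicles. The small libraries thus bracketed all 3 large ones, and the log2 fold change was 0.12 ± 0.27 (SE, limma adjusted p = 0.936). At the shortest length that fits, these FAS levels correspond to at least 10 to 15 fragments per large library, against at least 7 and 14 in the small ones. FASLG, its ligand, was at 0 fragments in all 5 libraries, which at its listed length of 849 bases allows up to 0.307 to 0.371 FPKM. TNFRSF1A, the main receptor for tumor necrosis factor, had 33.1, 42.0 and 38.6 FPKM in large follicles, against 38.2 and 41.2 FPKM in small follicles. Its highest library was only 1.27 times its lowest, with overlapping groups. TNFSF10, the ligand known as TRAIL, had 17.4, 9.07 and 23.9 FPKM in large follicles, against 14.2 and 26.3 FPKM in small follicles. Large follicle replicate 2 was the lowest library for TNFSF10 and small follicle replicate 2 the highest.

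The adaptors that couple these receptors to caspases overlapped between the follicle sizes. FADD, which recruits CASP8, averaged 25.7 ± 8.91 FPKM (SD, n = 3) in large follicles and 21.8 ± 3.47 FPKM (SD, n = 2) in small follicles. TRADD, the adaptor of TNFRSF1A, averaged 9.26 ± 2.31 FPKM in large follicles and 8.84 ± 2.97 FPKM in small follicles. RIPK1, a kinase that acts in both survival and death signalling, had the lowest log2 fold change of this group, -0.31 ± 0.27 (SE, limma adjusted p = 0.795). Over the 6 tested genes of the receptor route the median log2 fold change was 0.00, with 3 above 0 and 3 below.

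All 4 caspases of the set had lower mean FPKM in large follicles, and none passed the test. CASP8 (gene 595105, chromosome 15, 104923659 to 104948470), the initiator of the receptor route, had 1.497, 1.488 and 2.58 FPKM in large follicles, against 1.92 and 3.10 FPKM in small follicles. Large follicle replicate 3 lay between the small libraries, and the log2 fold change was -0.30 ± 0.31 (SE, limma adjusted p = 0.840). CASP9 (gene 100518913, chromosome 6, 74707597 to 74730033), the initiator of the apoptosome, had 0.783, 2.38 and 3.33 FPKM in large follicles, against 3.18 and 3.35 FPKM in small follicles. Large follicle replicate 1 alone was under 1 FPKM, from at least 22 fragments. Large follicle replicate 3 reached the level of the small libraries. The log2 fold change of CASP9 was -0.52 ± 0.38 (SE, limma adjusted p = 0.738). With large follicle replicate 1 left out it was -0.16.

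CASP2, a caspase linked to the DNA damage response, was chosen for full values after they were seen. CASP2 (gene 100521118, chromosome 18, 6946432 to 6966088) had 9.78, 8.44 and 10.9 FPKM in large follicles, against 12.1 and 14.8 FPKM in small follicles. All 3 large libraries were under both small ones, by a log2 fold change of -0.44 ± 0.25 (SE, interval -0.99 to 0.12, limma adjusted p = 0.629). CASP6, an executioner caspase, had 2.92 to 6.01 FPKM in large follicles, against 5.09 and 8.90 FPKM in small follicles, and its groups overlapped. The log2 fold changes of these 4 caspases ran from -0.52 to -0.30, and stayed below 0 under each alternative setting that tested them, of which a mean FPKM of at least 5 left out CASP8 and CASP9.

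The other parts of the mitochondrial machinery overlapped between the sizes and had no call. DIABLO, released from mitochondria to block inhibitors of caspases, was the steadiest gene of the set, at 42.4, 40.7 and 38.8 FPKM in large follicles, against 38.9 and 38.7 FPKM in small follicles. Its log2 fold change was 0.06 with an interval of -0.37 to 0.50. CYCS, cytochrome c, averaged 37.2 ± 4.50 FPKM (SD, n = 3) in large follicles and 38.6 ± 13.0 FPKM (SD, n = 2) in small follicles. In human, CYCS has many processed copies, and no source used here says how fragments shared with such copies were assigned, so its level is uncertain. APAF1, the scaffold of the apoptosome, had 4.14, 1.23 and 3.30 FPKM in large follicles, against 1.40 and 3.60 FPKM in small follicles. Its low libraries were large follicle replicate 2 and small follicle replicate 1, and its interval was -0.81 to 1.09.

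The 3 effectors of the BCL2 family, which perforate the outer mitochondrial membrane, overlapped between the follicle sizes and had no call. BAX (gene 396633, chromosome 6, 54222341 to 54228150) had 51.6, 25.5 and 39.6 FPKM in large follicles, against 26.8 and 40.5 FPKM in small follicles. Its highest and lowest libraries were both of large follicles, and the log2 fold change was 0.17 ± 0.31 (SE, limma adjusted p = 0.916). BAK1, the partner effector, averaged 11.05 ± 0.662 FPKM (SD, n = 3) in large follicles and 10.6 ± 1.35 FPKM (SD, n = 2) in small follicles. BOK, a related protein known from reproductive tissues, averaged 4.21 ± 0.552 FPKM in large follicles and 4.02 ± 0.375 FPKM in small follicles. The intervals of BAK1 and BOK were -0.47 to 0.60 and -0.57 to 0.67 on the log2 scale.

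Among BH3-only proteins, which sense stress and bind pro-survival members, BAD came closest to a difference. BAD (gene 100521065, chromosome 2, 7831192 to 7842864), held inactive by survival kinases when phosphorylated, had 43.0, 35.5 and 30.7 FPKM in large follicles, against 26.3 and 27.7 FPKM in small follicles. All 3 large libraries lay above both small ones. The log2 fold change of 0.40 ± 0.22 (SE, interval -0.09 to 0.89) had the smallest p of the set, 0.0951 by limma unadjusted and 0.597 adjusted. BAD was named after its values were seen.

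The other tested BH3-only genes overlapped. BID, which links CASP8 to the mitochondrion, had 16.9 to 20.3 FPKM in large follicles, against 14.1 and 21.4 FPKM in small follicles. BMF, BCL2L11 (known as BIM) and BBC3 (known as PUMA) had log2 fold changes of -0.13, 0.00 and -0.14. In each of these 3 genes large follicle replicate 2 had the lowest value of all libraries. PMAIP1 (known as NOXA), a target of the tumor suppressor p53, had 0.967, 0.557 and 0.709 FPKM in large follicles, against 0.974 and 2.13 FPKM in small follicles. The lower small library was just above the highest large one, and PMAIP1 was not tested, since small follicle replicate 2 was its sole library above 1 FPKM. These values stood on 12, 6 and 8 fragments in large follicles, against 10 and 23 in small follicles.

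The pro-survival members showed no call either. MCL1 (gene 397648, chromosome 4, 98562092 to 98567014), a short-lived survival protein, had 60.7, 43.4 and 54.7 FPKM in large follicles, against 52.2 and 67.0 FPKM in small follicles. Its log2 fold change was -0.17 ± 0.23 (SE, limma adjusted p = 0.882), with overlapping groups. BCL2L1 (gene 397536, chromosome 17, 35366139 to 35415798), whose long form is BCL-XL, had 19.5, 22.6 and 20.05 FPKM in large follicles, against 21.5 and 20.7 FPKM in small follicles. Its libraries differed by at most 1.16 times, and its difference was -0.03 (interval -0.50 to 0.44, limma adjusted p = 0.983), with a sign that turned under median-of-ratios scaling, quantile normalization and voom, and without large follicle replicate 1 or small follicle replicate 1. BCL2 itself (gene 100049703, chromosome 1, 158337403 to 158518214), the founding member, was scarce at 1.56, 1.73 and 2.37 FPKM in large follicles, against 2.22 and 2.71 FPKM in small follicles. Large follicle replicate 3 lay between the small libraries, and the log2 fold change was -0.27 ± 0.28 (SE, limma adjusted p = 0.839). The shortest length at which the FPKM of BCL2 gave whole fragments was 7934 bases where 25894 are listed, so its level relative to other genes depends on which length is right. A gene without a symbol of its own, LOC100154044, is described in the files as bcl-2-like protein 2. It averaged 5.53 ± 2.28 FPKM (SD, n = 3) in large follicles and 6.22 ± 3.51 FPKM (SD, n = 2) in small follicles.

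Ratios of levels within a library, picked after the values were seen, did not set the follicle sizes apart in 5 of 6 cases. The ratio of BAX to BCL2 FPKM, a common index of the mitochondrial balance, was 33.2, 14.7 and 16.7 in large follicles, against 12.1 and 14.9 in small follicles. Large follicle replicate 1 stood alone at the top, and large follicle replicate 2 lay under small follicle replicate 2. Summed effectors over summed pro-survival members gave 0.828, 0.6004 and 0.701 in large follicles, against 0.529 and 0.623 in small follicles. The sixth ratio, CFLAR to CASP8, was 8.04, 4.59 and 4.70 in large follicles, against 3.59 and 4.19 in small follicles. Its groups did not overlap, and it was not tested. Among single genes, 26.1% of all tested did not overlap, and no such share was taken over ratios.

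**Figure D3:**
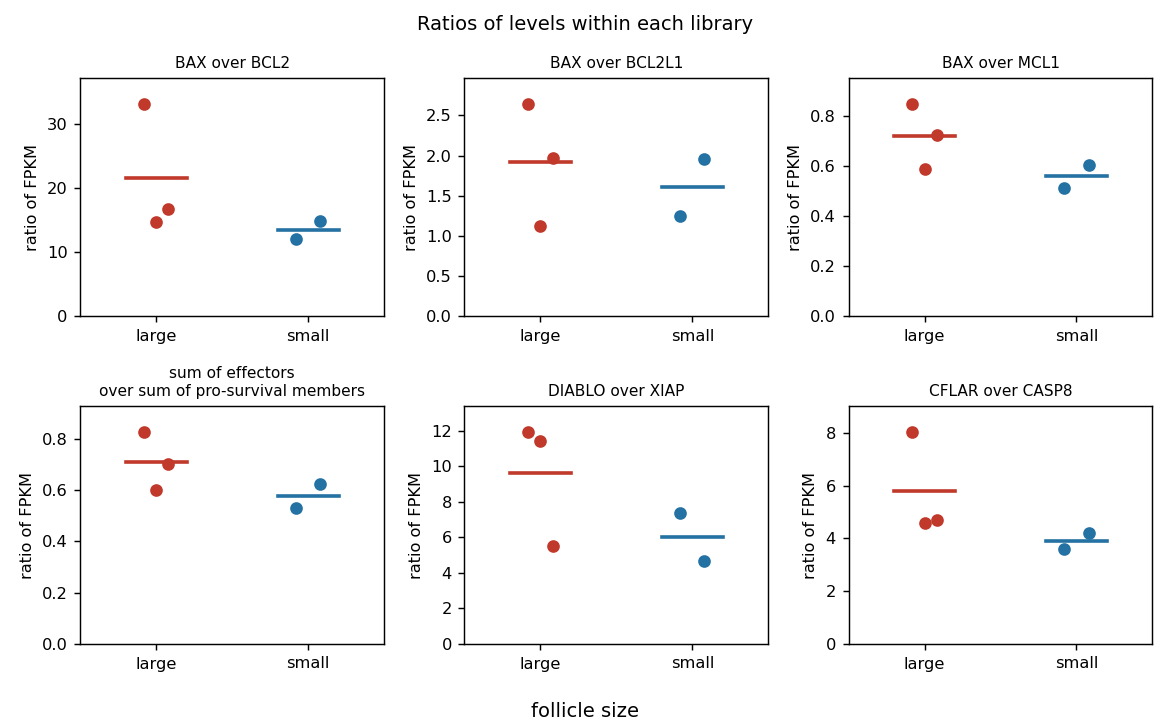
Ratios of FPKM within each library (points) and their group means (horizontal lines) for 6 pairs of apoptosis genes or sums, large follicles left and small follicles right; each vertical axis starts at 0. Large and small libraries overlap for all but the ratio of CFLAR to CASP8, where the lowest large library has 4.59 and the highest small library 4.19.

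Inhibitors of caspases and of p53 overlapped between the follicle sizes. XIAP (gene 100037300, chromosome X, 101399374 to 101440021), which blocks active caspases directly, had 3.55, 3.56 and 7.01 FPKM in large follicles, against 5.25 and 8.26 FPKM in small follicles. Large follicle replicates 1 and 2 were under both small libraries and large follicle replicate 3 was between them, with a log2 fold change of -0.47 ± 0.35 (SE, limma adjusted p = 0.743). BIRC3, a ubiquitin ligase of the same family, had 3.69, 1.99 and 6.02 FPKM in large follicles, against 3.34 and 7.96 FPKM in small follicles. The values of BIRC3 were lowest in large follicle replicate 2 and highest in small follicle replicate 2, and its interval of -1.40 to 0.53 reached past -1. LOC100622859, described in the files as baculoviral IAP repeat-containing protein 2 and located next to BIRC3 on chromosome 9, had a log2 fold change of -0.20 ± 0.36 (SE, limma adjusted p = 0.917). CFLAR, the decoy that keeps CASP8 from activation, averaged 10.3 ± 3.03 FPKM (SD, n = 3) in large follicles and 9.93 ± 4.31 FPKM (SD, n = 2) in small follicles. MDM2, the ligase that removes p53, averaged 5.31 ± 1.25 FPKM in large follicles and 5.33 ± 1.85 FPKM in small follicles.

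Among stress and FOXO factors, both GADD45 genes varied widely between libraries and FOXO1 and FOXO3 varied little; the GADD45 values were picked out after they were seen. GADD45A, a growth arrest gene induced by DNA damage and stress, had 133, 32.4 and 107 FPKM in large follicles, against 62.6 and 104 FPKM in small follicles. Its lowest and highest libraries, both of large follicles, differed 4.12 times, and its interval of -1.20 to 1.09 reached past 1 log2 unit either way. GADD45B, its relative, had 43.3, 25.9 and 42.5 FPKM in large follicles, against 15.5 and 46.3 FPKM in small follicles. Its low library was small follicle replicate 1, without which the log2 fold change of 0.42 turned to -0.34. Without small follicle replicate 2 it was 1.18, the single case in which a gene of the set reached an unadjusted p under 0.05 (0.00637, limma adjusted p = 0.320).

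FOXO1 (gene 397077, chromosome 11, 15317222 to 15410059), a transcription factor that is restrained by survival kinases and has been tied to granulosa cell death in mouse, had 43.9, 58.5 and 70.7 FPKM in large follicles, against 56.8 and 47.2 FPKM in small follicles. The groups overlapped, and the log2 fold change was 0.13 ± 0.24 (SE, limma adjusted p = 0.924). FOXO3 (gene 733621, chromosome 1, 74626673 to 74760323), which in mouse holds primordial follicles dormant, had 10.4, 11.9 and 13.4 FPKM in large follicles, against 13.0 and 14.8 FPKM in small follicles. Large follicle replicate 3 lay just above the lower small library, and the log2 fold change was -0.21 ± 0.24 (SE, limma adjusted p = 0.853). FOXO1 was the more abundant factor in every library.

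The apoptosis genes also differed between libraries of 1 follicle size, mostly in a shared direction. Small follicle replicate 1 was under small follicle replicate 2 for 29 of the 32 genes, a share of 90.6% where all genes tested gave 79.6%. Large follicle replicate 2 was the lowest of the large libraries for 21 of the 32 genes, 65.6% where all genes tested gave 62.0%. The median FPKM of the 32 genes was 10.6, 8.36 and 11.9 in large follicle replicates 1, 2 and 3, against 10.2 and 13.9 in small follicle replicates 1 and 2. The same libraries were low for all genes tested, at medians of 7.08, 5.75 and 8.05 FPKM in large follicles, against 6.38 and 8.87 FPKM in small follicles. Fragments from the mitochondrial genome, which can shift with RNA quality, took 3.46%, 6.34% and 3.09% of the large libraries, against 8.53% and 4.22% of the small ones. They were highest in the library that was low within each size, and their part in these values was not tested. With large follicle replicate 2 and small follicle replicate 1 both left out, 0 of the 32 genes were called (smallest limma adjusted p = 0.477).

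**Figure D4:**
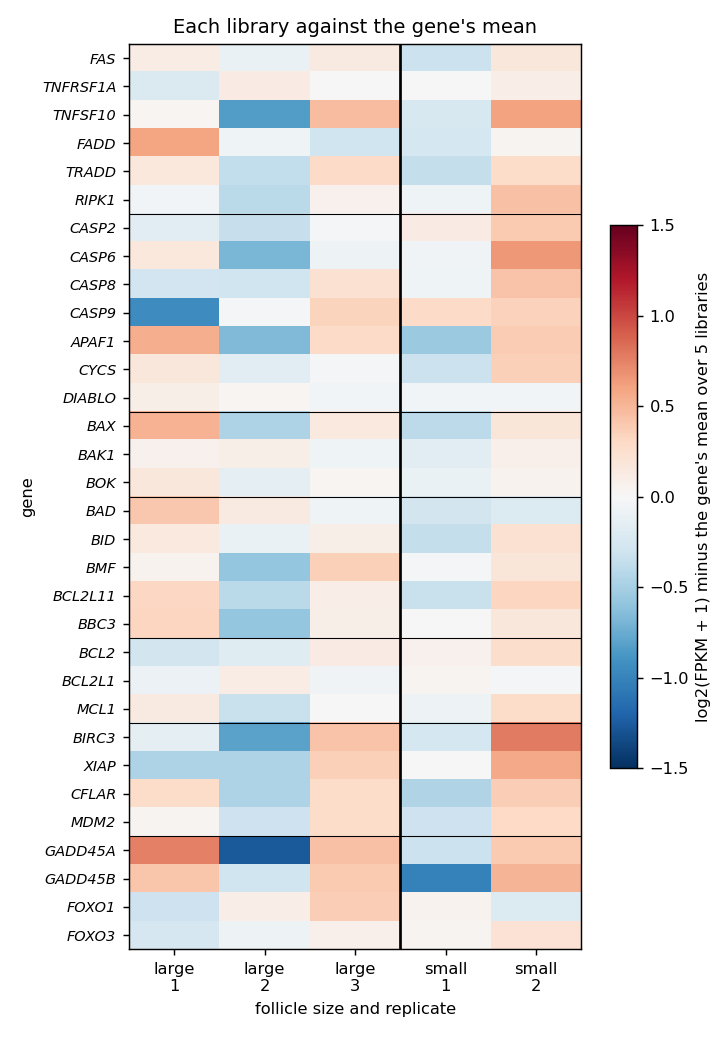
Deviation of each library from the gene's mean over the 5 libraries, as log2(FPKM + 1), for the 32 tested apoptosis genes; large follicle replicates 1 to 3 are left of the vertical line and small follicle replicates 1 and 2 right of it, and horizontal lines separate the roles. Large follicle replicate 2 and small follicle replicate 1 are mostly blue (low) and small follicle replicate 2 mostly red (high), and small follicle replicate 1 is under replicate 2 in 29 genes.

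Of 38 further pathway genes reported here, 29 were tested and 0 were called in either direction, where 0.978% of all genes tested were called. Their median log2 fold change was -0.12, beside -0.08 over all genes tested. BCL2L13, a mitochondrial protein of the BCL2 family, PARP1, a DNA repair enzyme cut by caspases, and GADD45G, a stress gene, had no call. Their log2 fold changes were -0.41, -0.38 and 0.996, at adjusted p (limma) of 0.664, 0.698 and 0.699. FOXO4, a FOXO factor outside the set, had -0.36 ± 0.28 (SE, limma adjusted p = 0.758). GADD45G had 122, 24.6 and 104 FPKM in large follicles, against 18.8 and 59.9 FPKM in small follicles. The interval of GADD45G with all libraries was -0.46 to 2.45. With large follicle replicate 2 left out its log2 fold change was 1.71 (limma adjusted p = 0.0201). That library lay between the small libraries, so the call depends on its removal. Large follicle replicate 1 was the highest library and small follicle replicate 1 the lowest, so leaving out either lowers the difference instead. The sign stayed above 0 under each alternative.

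Targets of p53 gave 0 calls among 10 tested genes, where 0.978% of all genes tested were called. The median log2 fold change of these targets was -0.09, beside -0.08 over all genes tested. CCNG1, a cyclin induced by p53, had 79.4, 89.0 and 109 FPKM in large follicles, against 174 and 139 FPKM in small follicles, without overlap. Its log2 fold change was -0.75 ± 0.22 (SE, limma adjusted p = 0.201). PHLDA3, an inhibitor of the survival kinase AKT, AEN, a nuclease of apoptotic cells, and TP53INP1, a stress protein, stood at -0.62, -0.32 and 0.31. Their adjusted p (limma) was 0.485, 0.8004 and 0.884.

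Survival signalling genes gave 0 calls among 11 tested, where 0.978% of all genes tested were called. The median log2 fold change of this list was -0.21, beside -0.08 over all genes tested. KIT, the receptor of KIT ligand found on oocytes and theca cells, had 1.47, 1.45 and 1.39 FPKM in large follicles, against 3.30 and 8.52 FPKM in small follicles. Its log2 fold change was -1.39 ± 0.36 (SE, limma adjusted p = 0.135), with both small libraries above all large ones. Limma voom on the scaled fragments called KIT (adjusted p = 0.0412), as did limma with small follicle replicate 1 left out (adjusted p = 0.0431). With small follicle replicate 2 left out, the log2 fold change was -0.82 (limma adjusted p = 0.721). Summed oocyte markers stood at 46.0 to 62.4 FPKM in large follicles, against 26.3 and 37.04 FPKM in small ones. Among them ZP4 was higher in all large libraries, while ZP3, DDX4, GDF9 and BMP15 overlapped between the sizes. The part of oocyte content in the KIT level was not tested. AKT1, a survival kinase, had 69.6, 70.4 and 69.0 FPKM in large follicles, against 84.5 and 98.8 FPKM in small follicles, without overlap. Its log2 fold change was -0.39 ± 0.19 (SE, limma adjusted p = 0.547). PIK3R1, a regulatory subunit upstream of AKT1, had 0.68 ± 0.35 (SE, limma adjusted p = 0.577), and IGF1R, the receptor of insulin-like growth factor 1, had -0.53 ± 0.31 (SE, limma adjusted p = 0.650).

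Genes for the clearance of dying cells gave 0 calls among 12 tested, where 0.978% of all genes tested were called. The median log2 fold change of this list was 0.15, beside -0.08 over all genes tested. AXL, a receptor that binds dying cells through GAS6, had 37.4, 40.9 and 45.6 FPKM in large follicles, against 81.3 and 74.6 FPKM in small follicles. The groups stood well apart, and the log2 fold change of -0.90 ± 0.20 (SE, interval -1.35 to -0.46) had a limma adjusted p of 0.0776, which ranged from 0.0614 to 0.349 over the alternatives. STAB1, a scavenger receptor of macrophages and endothelium, had 24.1, 23.3 and 24.9 FPKM in large follicles, against 13.9 and 18.5 FPKM in small follicles (log2 fold change 0.56 ± 0.22, SE, limma adjusted p = 0.404). Summed myeloid markers, given above, were also higher in all large libraries, though CD68, CSF1R and CD163 overlapped between the sizes. Summed endothelial markers stood at 246 to 278 FPKM in large follicles, against 229 and 236 FPKM in small ones. Of these, PECAM1 and TIE1 were higher in all large libraries and the other endothelial markers overlapped. The part of either cell type in the STAB1 level was not tested. CD36, a scavenger receptor, and MFGE8, a bridge between dying cells and phagocytes, stood at log2 fold changes of 0.42 and 0.30. Their adjusted p (limma) was 0.758 and 0.778.

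**Figure D5:**
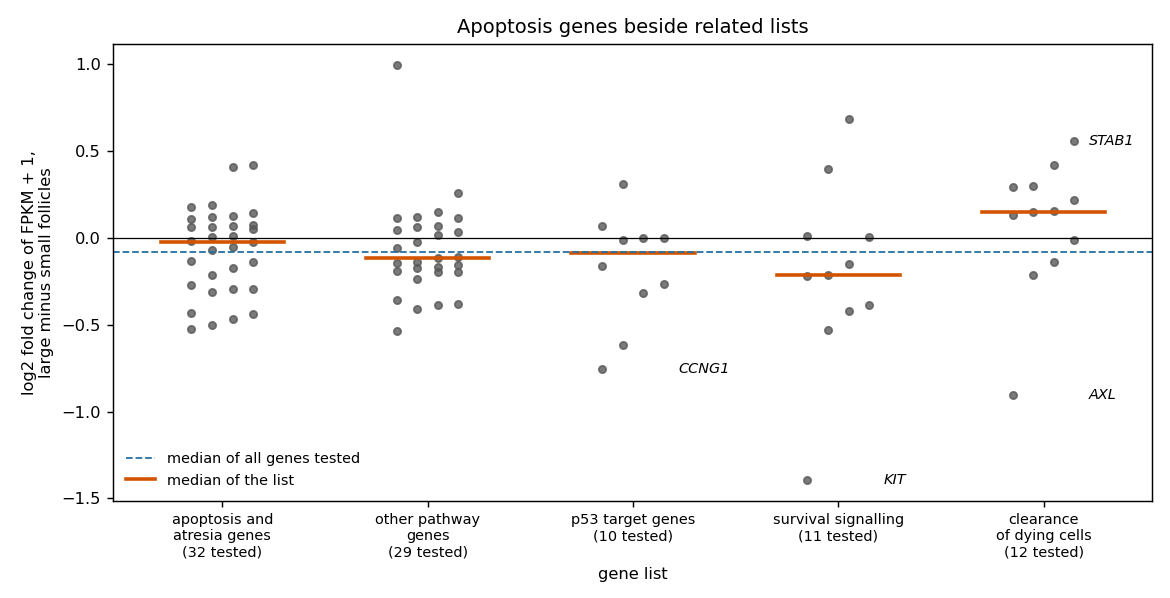
Log2 fold change of FPKM + 1, large minus small follicles, of each tested gene (points) in the apoptosis set and 4 related lists, with the median of each list (orange) and of all genes tested (dashed, at -0.08). The apoptosis set has its median at -0.02 and no gene beyond -0.52 or 0.42; named points have an unadjusted limma p under 0.05, and none passed the adjusted threshold.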

How the data were processed

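RNA-seq was measured in 3 large and 2 small follicle libraries made with TRIzol and a stranded mRNA kit, per the labels' protocols. The authors deposited FPKM values per gene. Per the submitters' processing notes, which give neither roles nor order, the tools were HISAT2 2.0.5, featureCounts 1.5.0-p3, StringTie 1.3.3, Trimmomatic 0.38 and FastQC 0.11.4, and the build was Sscrofa11.1. No source used here says if counting was strand-specific.

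Groups came from the sample titles. Limma 3.58.1 in R 4.3.3 was fitted on log2(FPKM + 1) with a mean-variance trend and the group as the only term, over the 13087 genes that reached 1 FPKM in 2 or more libraries. Tests are two-sided with Benjamini-Hochberg adjustment over these genes, and a call is an adjusted p under 0.05. Fold changes are large minus small and understate the change of low genes. The fit was tested on simulated libraries without the library-wide shifts seen here, so that test does not cover them.

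Library totals and whole fragments were worked back from the FPKM steps, within 0.001 of a fragment. Of 23353 genes above 0, 49.5% came out whole with the listed length and the others with a shorter length found by search, taken as the smallest that fits, so their fragments are the fewest possible. Of the 34 members with a row, 11 came out whole with the listed length. At these depths 3 fragments in 2000 bases correspond to 0.130 to 0.158 FPKM, for counting error only. Replicates of 1 size differed beyond sampling noise, with a chi-square per degree of freedom of at least 35.2.

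All 37 members are accounted for. By the naming rule, 10 were given in full whether changed or not (BAX, BCL2, MCL1, BCL2L1, FAS, CASP8, CASP9, XIAP, FOXO1, FOXO3), as would be members with an unadjusted p under 0.05, or without overlap and with a log2 fold change of at least 0.5 in size, of which there were 0. Full values of TNFRSF1A, TNFSF10, DIABLO, APAF1, BIRC3 and PMAIP1, like those of CASP2, BAD and both GADD45 genes, were given outside this rule. Up to 4 genes of smallest p were named per related list. Some genes of the related lists are not reported here and are left out of their counts, medians and plot, though not of the fit. Members and lists were chosen with earlier results of these data known. Chromosomes came from a RefSeq gene table of Sscrofa11.1, matched by gene identifier. Alternatives covered other pseudocounts, filters and scalings, a replicate block, each library left out, and voom with scaling by trimmed means of log ratios on the recovered fragments.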

Additional observations from a re-analysis of the deposited data

How the results depend on the processing

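None of the 14 alternatives called an apoptosis gene, and the smallest limma adjusted p among them ranged from 0.320 (without small follicle replicate 2) to 0.9997 (replicate block). A mean FPKM of at least 5 left 24 of the 32 members to test. Over all genes, beside 128 called as reported, the count was 32 with no filter, 41 at a mean FPKM of at least 5, 202 with median-of-ratios scaling and 201 with quantile normalization. With 1 library left out it ranged from 29 (large follicle replicate 1) to 268 (large follicle replicate 2), and was 390 with large follicle replicate 2 and small follicle replicate 1 both left out, an alternative chosen after seeing the data. The cause was not tested. The median log2 fold change of the tested members ranged from -0.31 (without small follicle replicate 1) to 0.11 (without small follicle replicate 2). Over all genes tested the median was -0.26 and 0.09 in these settings. The median of the members was 0.07 with median-of-ratios scaling, 0.06 with voom and 0.01 with quantile normalization. Over all genes tested it was -0.0015, -0.01 and -0.01 in that order.

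The sign of the log2 fold change turned under at least 1 alternative for 22 of the 32 members. The 10 that kept it under each alternative that tested them were BAD and DIABLO, above 0, and RIPK1, CASP2, CASP6, CASP8, CASP9, BCL2, XIAP and FOXO3, below 0. Of these, CASP8, CASP9 and BCL2 were not tested at a mean FPKM of at least 5. With a replicate block (numbers 1 and 2 as pairs) 157 genes and 0 members were called. The median of the members was then -0.08, beside -0.16 over all genes tested. The numbers were not taken as pairs, since the labels do not say that equal numbers share an animal. Deviations from the mean of each size correlated at 0.00 and -0.45 for equal numbers, and at -0.53 to 0.53 for unequal ones. With 2 small libraries the deviations of 1 mirror those of the other, so these correlations cannot decide the pairing. Depth limits PMAIP1 and FASLG, which had at most 23 fragments in any library, and FAS, whose fragments are known only as a minimum.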
